A study of Sus scrofa with 16 samples.

Results

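Transcript levels of 10 genes of the death receptor and caspase pathway were followed in the small intestine of preterm piglets given antibiotics or saline. Signalling and caspase activity were not measured. The genes were TNFRSF1A, TNFRSF1B, TNFSF10, FADD, CFLAR, CASP1, CASP6, BID, DIABLO and MCL1. All probe sets annotated with one of these symbols alone were taken, which gave 15 probe sets for the 10 genes, among 23999 probe sets and 6765 genes on the array. A probe set is a group of short probes that together report one transcript. Of the 15, 14 passed the filter for a measurable signal, a log2 value above 5 on at least 4 of the 16 arrays, and were tested with 11538 probe sets in all. Each of the 10 genes had at least 1 tested probe set, and the probe set left out was a second one of FADD.

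The piglets were crossbred (Landrace x Large white x Duroc) and came by caesarean section from 2 sows at gestation day 105, before term. All were kept in incubators and fed first through a vascular catheter with small amounts given into the gut, then by stomach tube alone. The antibiotics piglets received Ampicillin, Gentamycin and Metronidazol by mouth and into the muscle, and the controls, called untreated in the sample names, received saline. Doses were given every day until the piglets were killed at day 5 of life, so every group was of the same age. The 4 groups were antibiotics distal, control distal, antibiotics proximal and control proximal small intestine, with 4 arrays each from 9 numbered piglets. Of these piglets 7 gave both segments, 3 with antibiotics and 4 controls. The sources used here give no litter or lesion score for a single piglet. Nothing in the labels says more of how the samples were taken, so p values measure the spread between these arrays, which may be in part technical.

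TNFRSF1A and the receptors for TNFSF10 pass a death signal by way of the adaptor FADD, which gathers the initiator caspase CASP8. CASP8 then activates executioner caspases directly or cuts BID, which carries the signal to mitochondria, where MCL1 holds it back and DIABLO is released to free caspases from their inhibitors. The same receptors can instead drive NF-kB and inflammation. In the gut this pathway can take part in the loss of epithelial cells, which was not measured here. CASP1 belongs to a parallel branch in which inflammasomes mature cytokines.

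The values are log2 GCRMA intensities, so a difference of 1 is a doubling, and levels of different genes cannot be set against each other. The share of probe sets above the filter level was 45.1% to 46.5% on every array, and arrays of one group correlated at r = 0.878 to 0.981 across the tested probe sets. The lowest deposited value was 2.14, and 39.7% of all values lay under 2.5. Markers of the segments were checked. FABP6, a bile acid carrier of the distal gut, averaged 9.85 ± 1.26 in antibiotics distal and 8.79 ± 2.14 in control distal, against 2.31 ± 0.02 in antibiotics proximal and 3.89 ± 2.41 in control proximal tissue (SD, n = 4 each). The mean of 4 proximal markers (LEAP2, FABP1, APOA4, GATA4) was 7.31 and 9.24 on control distal arrays 89 and 92 but 10.61 and 10.62 on control distal arrays 83 and 88. The last values come near the 10.85 to 11.29 of the control proximal arrays, although FABP6 was also high on arrays 83 and 88, at 11.03 and 10.17. FABP6 was lower on control distal arrays 89 and 92, at 7.32 and 6.64. The markers thus do not settle which control distal arrays are the more distal, and leaving out 83 and 88 keeps those with less FABP6. Control proximal array 88 carried FABP6 at 7.40. Distal differences are therefore also given without control distal arrays 83 and 88 where leaving them out ends or makes a call, turns the direction or moves the value by over 1.5 times.

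At the brightest probe set of each gene, 8 of the 10 genes had a lower mean in distal intestine under antibiotics. TNFRSF1B (TNFR2), the TNF receptor found mainly on leukocytes and endothelium and lacking a death domain, was the 1 gene to pass the threshold there. Its log2 values were 5.14, 4.28, 4.70 and 5.46 with antibiotics, against 6.83, 6.14, 8.50 and 8.31 in controls. The groups did not overlap, and control arrays 89 and 92 were the highest. The means were 4.90 ± 0.51 and 7.45 ± 1.14 (SD, n = 4 each), so the level fell by 2.55 on the log2 scale (SE 0.55, limma adjusted p = 0.0247), a 5.85-fold lower intensity with a 95% confidence interval of -3.72 to -1.38 for the log2 difference. It was the 1 of 14 tested probe sets of these genes to pass the threshold, where 2.12% of all 11538 tested probe sets passed. Without control distal arrays 83 and 88 the difference was -3.51, with a limma adjusted p of 0.007. The call was lost when any one of antibiotics distal arrays 85, 86 and 87 or control distal arrays 89 and 92 was left out, with limma adjusted p values of 0.0567 to 0.0987 and differences of -2.63 to -2.20. It was kept without antibiotics distal 95, control distal 83 or control distal 88. In bulk tissue, fewer cells of a type and less RNA per cell cannot be told apart.

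In proximal intestine TNFRSF1B read 6.04, 5.41, 6.05 and 4.98 with antibiotics, against 5.95, 6.58, 6.97 and 8.41 in controls. All but 1 of the control arrays lay above every antibiotics array, and control 83 lay within the antibiotics range. The means were 5.62 ± 0.52 and 6.98 ± 1.05 (SD, n = 4 each), a difference of -1.36 (SE 0.55) that did not pass (limma adjusted p = 0.330). Without control proximal array 92, the highest, it was -0.88 with a limma adjusted p of 0.708. The distal and proximal differences were themselves compared in the fit, and their difference of -1.19 (SE 0.78) did not pass either (limma adjusted p = 0.851). Leaving out control distal arrays 83 and 88 made it -2.15 (limma adjusted p = 0.525). Averaged over both segments of each piglet, TNFRSF1B was at 5.16, 5.06 and 5.75 in antibiotics piglets 86, 87 and 95, against 6.39, 6.36, 7.73 and 8.36 in control piglets 83, 88, 89 and 92. The piglets of the groups did not overlap, but the difference of -1.89 (SE 0.50) gave a limma adjusted p of 0.149. Without control piglets 83 and 88 it was -2.72 with a limma adjusted p of 0.0224. On these animal means 0.347% of all tested probe sets passed and 0 of the 14 did. At an unadjusted p under 0.05 the count was 2 of 14, where 16.1% of all tested probe sets were under it.

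TNFRSF1A (TNFR1), the receptor with a death domain that is found on most cells, read 8.20, 7.97, 7.84 and 8.53 in antibiotics distal tissue, against 8.92, 7.73, 9.71 and 9.64 in control distal tissue. Control array 88 was below every antibiotics array, and the other 3 controls were above all of them. The difference was -0.87 (SE 0.41, limma adjusted p = 0.319). Without control distal arrays 83 and 88 it was -1.54 (limma adjusted p = 0.0503), which also did not pass. In proximal tissue the group means were 8.34 ± 0.57 and 8.42 ± 0.51 (SD, n = 4 each), a difference of -0.08. Distal arrays 89 and 92 and proximal array 92 were the highest of their control group for both receptors.

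TNFSF10 (TRAIL), the ligand that engages the TRAIL death receptors, read 5.96, 5.31, 5.47 and 7.23 in antibiotics distal tissue, against 8.29, 7.47, 7.70 and 9.81 in control distal tissue. The groups did not overlap, though antibiotics array 95 came within a small distance of control arrays 88 and 89. The means were 5.99 ± 0.87 and 8.32 ± 1.05 (SD, n = 4 each). The log2 difference of -2.32 was nearly as large as that of TNFRSF1B, but its SE was 1.01 and it did not pass (limma adjusted p = 0.268). In proximal tissue the values were 8.78, 6.79, 9.48 and 9.76 with antibiotics, against 4.76, 9.89, 9.98 and 10.05 in controls. Control array 83 lay far below the other 3, which were higher than all antibiotics arrays, and the group means of 8.70 ± 1.34 and 8.67 ± 2.61 (SD, n = 4 each) differed by 0.03. The spread that 1 array gave enters the SE of every comparison of this gene, because the 4 groups share an estimate of variance. With the 8 distal arrays alone the distal difference stayed -2.32, with a limma adjusted p of 0.0583. Without control distal arrays 83 and 88 it was -2.76 (limma adjusted p = 0.282).

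**Figure D1:**
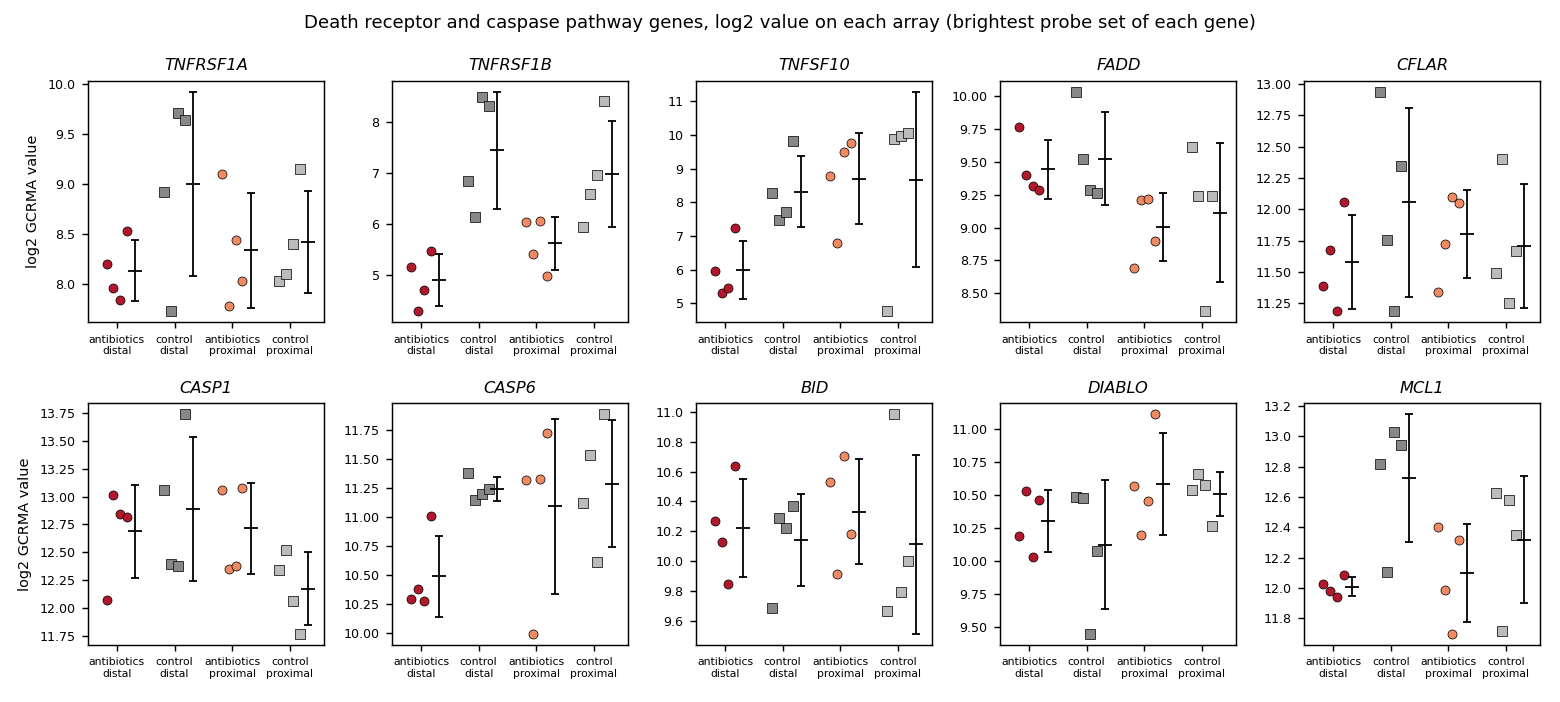
Log2 GCRMA value of each of the 10 genes at its brightest probe set (vertical axis, scaled per gene) on every array of the antibiotics distal, control distal, antibiotics proximal and control proximal groups (horizontal axis), with the mean and SD of the 4 arrays as a bar. TNFRSF1B, TNFSF10, CASP6 and MCL1 are lower on all 4 antibiotics distal arrays than on any control distal array, and TNFSF10 shows the single control proximal array at 4.76.

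FADD, the adaptor that links receptors with a death domain to CASP8, gave antibiotics distal values of 9.77, 9.40, 9.32 and 9.28, against 10.03, 9.52, 9.28 and 9.27 in control distal tissue. The ranges lay almost on top of each other. The difference was -0.08 with a 95% confidence interval of -0.65 to 0.48 (limma adjusted p = 0.921), it was 0.17 without control distal arrays 83 and 88, and in proximal tissue it was -0.11 with an interval of -0.68 to 0.46. The other FADD probe set stayed between 2.14 and 2.78, at or near the floor on all 16 arrays, and was not tested.

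CFLAR (c-FLIP), the catalytically dead relative of CASP8 that competes with it at the receptor, had a bright and a dim probe set. The bright one read 11.39, 11.67, 11.19 and 12.06 in antibiotics distal tissue, against 12.93, 11.75, 11.19 and 12.34 in control distal tissue. These ranges overlapped, and the difference was -0.48 (SE 0.35, limma adjusted p = 0.570), or -0.19 without control distal arrays 83 and 88. The dim one averaged 4.35 ± 0.65 with antibiotics and 5.28 ± 0.41 in controls (SD, n = 4 each), a difference of -0.92 (SE 0.40) that did not pass. Over the 16 arrays the 2 probe sets correlated at only r = 0.236, a description in which the arrays share piglets and groups. The dim one averaged 4.92, near the filter level, and lay below log2 5 on every antibiotics distal array. It passed the filter through other arrays, so its differences are given as a description only. Proximal differences were 0.10 and -0.36, and neither passed.

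CASP6, an executioner caspase that cuts nuclear lamins, was lower on every antibiotics distal array than on any control distal array at both of its probe sets. The brighter one read 10.30, 10.38, 10.28 and 11.01 with antibiotics, against 11.39, 11.15, 11.20 and 11.24 in controls. Control values were tight, with an SD of 0.10, while antibiotics array 95 stood above its group. The dimmer probe set gave 7.05, 7.07, 7.18 and 8.33 with antibiotics, against 8.43, 8.35, 8.45 and 8.66 in controls. It showed the same order, with antibiotics array 95 again the highest of its group and just below the lowest control. The differences were -0.75 (SE 0.34, limma adjusted p = 0.297) and -1.07 (SE 0.61, limma adjusted p = 0.432), and neither passed. Without control distal arrays 83 and 88 the differences were -0.73 and -1.15. The 2 probe sets correlated at r = 0.971 over the 16 arrays, so they count as one observation of the gene.

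In proximal tissue the brighter CASP6 probe set read 11.32, 9.997, 11.33 and 11.73 with antibiotics, against 11.12, 11.53, 10.61 and 11.89 in controls. In each group 1 array was low, antibiotics 87 and control 89, and the groups overlapped almost fully. The difference was -0.19 (SE 0.34). The 2 low arrays also had the lowest RNA integrity of their groups, read as the log2 signal of the 5′ minus the 3′ control probe sets for GAPDH and actin, at -4.35 and -4.76. The index averaged -4.70 ± 0.90 in antibiotics distal, -4.28 ± 0.46 in control distal, -3.43 ± 0.65 in antibiotics proximal and -3.80 ± 0.89 in control proximal tissue (SD, n = 4 each). With the index as a covariate the distal CASP6 differences were -0.55 and -0.66, and that of TNFSF10 was -1.93. The part of RNA integrity in these results was not otherwise tested.

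CASP1, the inflammasome protease that matures interleukins, read 12.07, 13.01, 12.84 and 12.81 in antibiotics distal tissue, against 13.06, 12.39, 12.37 and 13.74 in control distal tissue. The ranges overlapped and the difference was -0.20 (SE 0.32, limma adjusted p = 0.824), or -0.37 without control distal arrays 83 and 88. Proximal values were 13.06, 12.35, 12.37 and 13.08 with antibiotics, against 12.34, 12.52, 12.06 and 11.77 in controls. CASP1 was thus the member with the largest positive difference in proximal tissue, 0.54 (SE 0.32), which did not pass (limma adjusted p = 0.521). The distal difference minus the proximal one was -0.75 (SE 0.46, limma adjusted p = 0.837).

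Of the mitochondrial arm, MCL1, a short-lived inhibitor of apoptosis of the BCL2 family, read 12.03, 11.98, 11.94 and 12.08 in antibiotics distal tissue, against 12.82, 12.11, 13.03 and 12.94 in control distal tissue. Antibiotics arrays agreed within an SD of 0.06, and control array 88 lay just above them. The difference was -0.72 (SE 0.26, limma adjusted p = 0.174) with a 95% confidence interval of -1.26 to -0.17, and it did not pass. It was -0.98 (limma adjusted p = 0.0907) without control distal arrays 83 and 88. Its proximal groups overlapped and differed by -0.22.

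BID, which CASP8 cuts to carry the death signal to mitochondria, stayed between 9.66 and 10.98 at its brighter probe set on all 16 arrays. Its distal group means were 10.22 ± 0.33 with antibiotics and 10.14 ± 0.31 in controls (SD, n = 4 each), a difference of 0.08 with a 95% confidence interval of -0.55 to 0.71. Leaving out control distal arrays 83 and 88 turned the distal difference to -0.07. The proximal difference was 0.22. DIABLO (Smac), released by mitochondria to neutralise inhibitors of apoptosis, stayed between 9.45 and 11.11 and averaged 10.31 ± 0.24 with antibiotics and 10.12 ± 0.49 in controls in distal tissue (SD, n = 4 each). That difference was 0.18 with an interval of -0.36 to 0.73, and the proximal one was 0.07. Control distal arrays 89 and 92 were the lowest of their group for DIABLO, and without arrays 83 and 88 the distal difference was 0.54 (limma adjusted p = 0.355). The second probe sets followed the first over the arrays, at r = 0.950 for BID and r = 0.938 for DIABLO, and gave distal differences of 0.05 and 0.19, or -0.15 and 0.45 without the same 2 arrays.

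Over all 14 tested probe sets, 10 had a lower distal mean with antibiotics and their median difference was -0.60, where the median of all 11538 tested probe sets was 0.004 and 49.6% were lower. The groups did not overlap at 5 of the 14, all lower with antibiotics and from 4 genes (TNFRSF1B, TNFSF10, CASP6 and MCL1). This was 35.7% of the 14, where 6.31% of all tested probe sets were lower without overlap. The members and the gene lists were chosen with earlier results of these data known. Their shares, here and between the segments, are therefore a description and not a test. The dim CFLAR probe set, among the 10 lower ones, lay below log2 5 on every antibiotics distal array. With control distal arrays 83 and 88 left out, 11 of 14 were lower and the median was -0.55. In proximal tissue 7 of 14 were lower with a median of 0.01, none passed, and 0 were without overlap, against 0.147% passing and 3.05% without overlap among all tested probe sets. At an unadjusted p under 0.05 the counts were 5 of 14 in distal and 1 of 14 in proximal tissue, where 15.8% and 12.9% of all tested probe sets were under it in the same order of segments. The difference between the distal and proximal effects was negative at 12 of 14 probe sets and passed at 0, where 0.191% of all passed. At an unadjusted p under 0.05 it also passed at 0 of the 14, where 6.62% of all did, and the limma adjusted p values ran from 0.834 to 0.996.

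**Figure D2:**
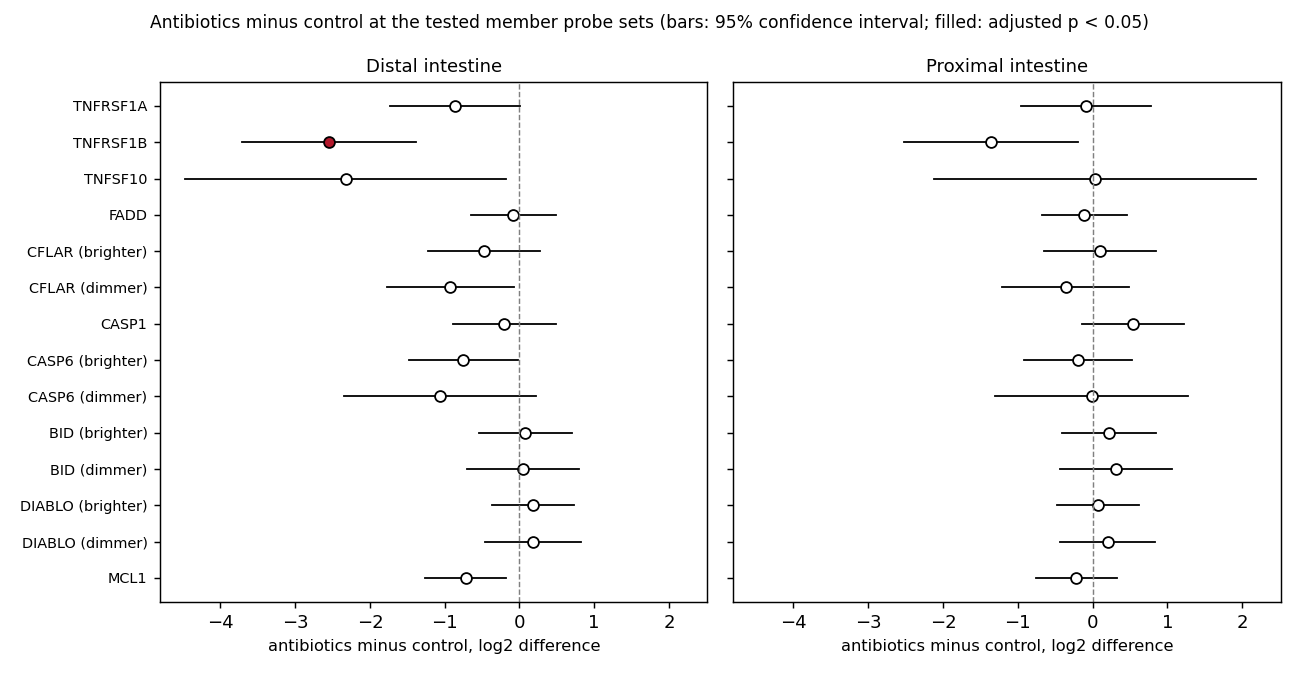
Antibiotics minus control log2 difference (horizontal axis) at each of the 14 tested probe sets (vertical axis) in distal and proximal intestine, with 95% confidence intervals from the fit over all 16 arrays. The filled point is TNFRSF1B in distal tissue, at -2.55, the one probe set past an adjusted p of 0.05. BID, DIABLO and FADD lie close to 0 in both segments.

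Pan-leukocyte and macrophage markers were lower where TNFRSF1B was. Of 10 pan-leukocyte markers 7 were tested, and their mean was 5.93 (range 5.41 to 6.77) in antibiotics distal, against 7.42 (7.15 to 7.75) in control distal tissue. All 7 were lower with antibiotics, and CD53, LCP1 and VAV1 passed, whereas the defining markers PTPRC and ITGB2 were dim on all 16 arrays. Of 12 macrophage and monocyte markers 6 were tested, with a mean of 7.46 (6.92 to 7.76) with antibiotics, against 9.41 (9.27 to 9.63) in controls. All 6 were lower, C1QC passed, as did CD163, and CD14 was at the floor. Of 11 neutrophil markers only S100A9 and NCF1 were tested. Their mean was 3.19 (3.06 to 3.33) with antibiotics, against 7.48 (5.71 to 8.31) in controls. CD163, S100A9 and NCF1 lay below log2 5 on every antibiotics distal array and passed the filter through other arrays, so their differences are given as a description only. The macrophage mean includes CD163, and the neutrophil mean is that of S100A9 and NCF1, so both means are likewise a description only. In proximal tissue the pan-leukocyte mean was 6.87 with antibiotics and 7.62 in controls, and the macrophage mean was 8.27 with antibiotics and 9.25 in controls. The proximal mean of the 2 neutrophil markers was 3.73 with antibiotics and 6.97 in controls. Of the lymphocyte lists 2 markers each were tested and 0 passed in distal tissue. The T and NK mean was 4.12 with antibiotics and 4.83 in controls, with CD3D and CD3E dim on all arrays, and the B and plasma mean was 8.67 and 9.14 in the same groups. Of 9 endothelial markers 4 were tested, 3 were lower and 0 passed, with a distal mean of 6.98 with antibiotics and 7.38 in controls. The epithelial list, with 9 of 13 markers tested, averaged 12.51 with antibiotics and 12.63 in controls in distal tissue, and 0 of its genes passed by limma, with 1 of 9 at an unadjusted p under 0.05. Whether cell content had a part in the TNFRSF1B result was not tested. By Pearson correlation over the 16 arrays, which share piglets and groups, the genes whose levels ran most like TNFRSF1B were TAPBP (r = 0.924), a chaperone of antigen loading, TIMP1 (r = 0.916), an inhibitor of matrix proteases, and NFKBIA (r = 0.905), the NF-kB inhibitor that NF-kB itself induces.

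**Figure D3:**
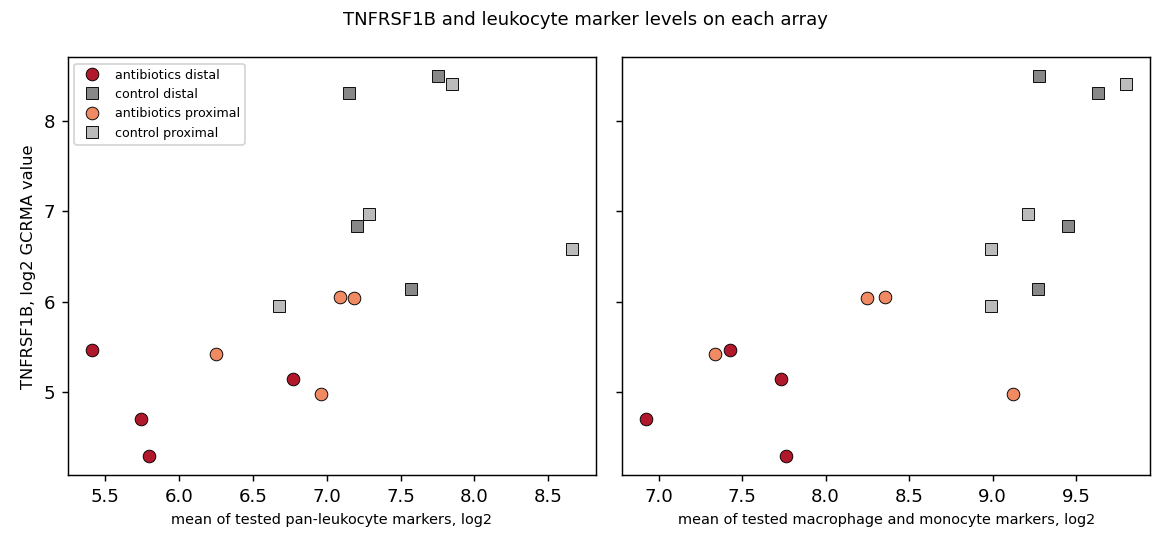
TNFRSF1B log2 value (vertical axis) against the mean log2 value of the 7 tested pan-leukocyte markers and of the 6 tested macrophage and monocyte markers (horizontal axes), with 1 point per array. Antibiotics distal arrays lie below every control distal array on both marker axes, with macrophage means of 6.92 to 7.76 against 9.27 to 9.63. Proximal arrays overlap these ranges. The highest pan-leukocyte mean is on control proximal array 88 (8.66) and the highest macrophage mean on control proximal array 92 (9.80).

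The wider pathway was described from a list of 104 further genes, of which 47 had a probe set and 35 were tested. In distal tissue 24 of the 35 had a lower mean with antibiotics, where 49.6% of all tested probe sets did, with a median difference of -0.24. By limma 1 of the 35 passed, where 2.12% of all tested probe sets did. The one gene to pass was ENDOG, a mitochondrial nuclease released in cell death, and it was higher. It averaged 7.75 ± 0.13 with antibiotics, with a range of 7.56 to 7.86, and 6.49 ± 0.59 in controls, with a range of 5.88 to 7.27 (SD, n = 4 each). The groups did not overlap, and the difference was 1.26 (SE 0.31, limma adjusted p = 0.0434). ENDOG kept its call in only 1 of 8 fits that left out a distal array, the fit without control 88, and without both control arrays 83 and 88 it was 1.69 with a limma adjusted p of 0.019. In proximal tissue its difference was 0.78 (SE 0.31, limma adjusted p = 0.318), and 1.05 (limma adjusted p = 0.0478) without control proximal array 88. On animal means it passed only without control piglet 88 (1.27, limma adjusted p = 0.0319) or without control piglets 83 and 88 (1.42, limma adjusted p = 0.0335), of the fits that left out animals. In the other 5 comparisons 0 of the 35 genes passed by limma, where 2 to 6 of the 35 had an unadjusted p under 0.05, as did 6.62% to 17.0% of all tested probe sets. In distal tissue it was 8 of the 35, as for 15.8% of all.

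Among further ligands and receptors 3 of the 4 tested were lower in antibiotics distal tissue. TNFRSF21 (DR6), a death-domain receptor, averaged 8.88 ± 0.52 with antibiotics and 10.23 ± 0.51 in controls, and the groups did not overlap. Its difference was -1.35 (SE 0.47, limma adjusted p = 0.159). LTB, a TNF family ligand of lymphocytes, differed by -0.78 with a wide SE of 1.24, by -1.71 without antibiotics distal array 85 and by 0.03 without control distal array 88. Of the adaptors and the NF-kB branch 6 of 8 were lower. NFKBIA averaged 9.15 ± 0.53 with antibiotics and 11.06 ± 0.91 in controls (SD, n = 4 each), without overlap, and its difference of -1.91 (SE 0.52) gave a limma adjusted p of 0.0742. Without control arrays 83 and 88 that was -2.61 with a limma adjusted p of 0.0317, and without control distal array 88 alone it was -2.30 with 0.0289. CYLD, a deubiquitinase of the TNF receptor complex, differed by -0.78 (SE 0.26, limma adjusted p = 0.134), and by -1.01 (limma adjusted p = 0.0374) without control distal array 88.

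Both other caspases tested were lower in antibiotics distal tissue and neither passed. CASP8, the initiator caspase of death receptors, averaged 5.50 ± 0.86 with antibiotics and 6.91 ± 0.81 in controls in distal tissue, a difference of -1.42 (SE 0.63, limma adjusted p = 0.282). In proximal tissue it averaged 7.13 ± 1.22 and 6.64 ± 1.02 (SD, n = 4 each), a difference of 0.49. CASP2 differed by -0.24 in distal tissue, or by -0.37 without control distal arrays 83 and 88. Of the BCL2 family 3 of 5 were lower in distal tissue. PMAIP1 (NOXA), which antagonises MCL1, averaged 4.03 ± 0.34 with antibiotics and 5.19 ± 0.91 in controls. It lay below log2 5 on every antibiotics distal array and passed the filter through other arrays. Its differences are therefore given as a description only. They were -1.16 (SE 0.41), which did not pass, and -1.95 without control distal arrays 83 and 88. BAD differed by -0.09, or by 0.08 without them.

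Of the mitochondrial factors and inhibitors of apoptosis 3 of 5 were lower, among them BIRC5 (survivin), also a mitotic protein, at -0.78 (SE 0.38), or -0.30 without control distal arrays 83 and 88. Of the caspase substrates 3 of 6 were lower. LMNB1, a nuclear lamin, differed by -0.94 (SE 0.42) and ROCK1, a kinase of membrane blebbing, by 0.57, or by 0.36 without those arrays. Of the inflammasome and necroptosis genes 4 of 5 were lower. IL18, the cytokine that CASP1 matures, averaged 10.01 ± 0.41 with antibiotics and 11.12 ± 1.42 in controls in distal tissue, a difference of -1.11 (SE 0.59, limma adjusted p = 0.393). That difference was 0.0025 without control distal arrays 83 and 88. GSDMD, the pore-forming protein that CASP1 cuts, ran the other way, at 8.84 ± 0.51 with antibiotics and 7.99 ± 0.67 in controls (SD, n = 4 each). Its difference of 0.85 (SE 0.43) gave a limma adjusted p of 0.352.

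**Figure D4:**
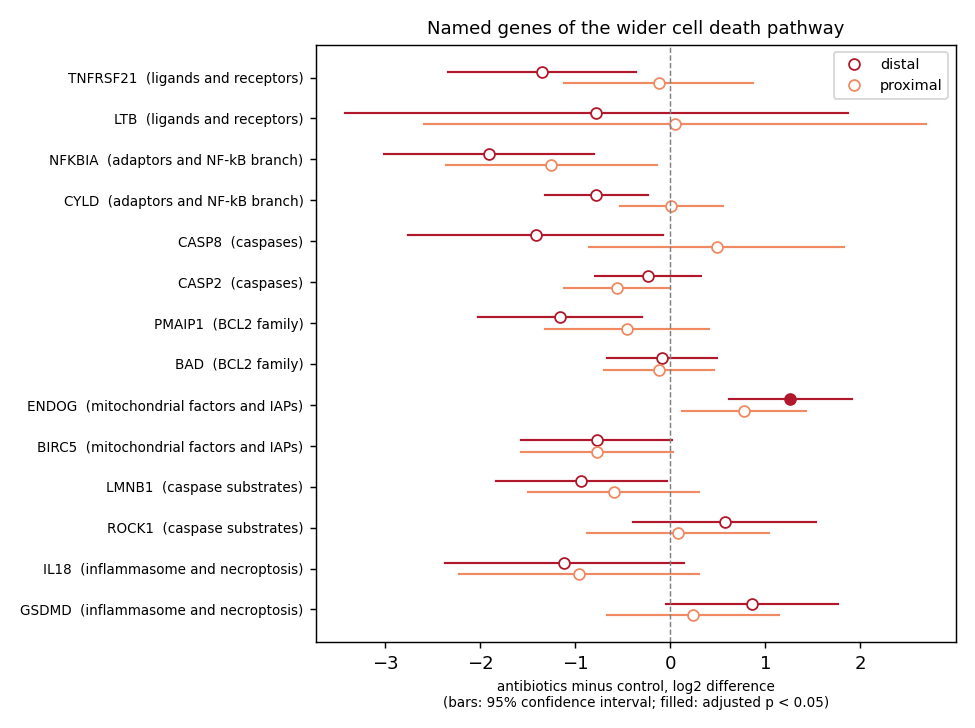
Antibiotics minus control log2 difference (horizontal axis), with 95% confidence intervals, of the 14 named genes of the wider pathway, ordered by role (vertical axis), in distal and proximal intestine. ENDOG in distal tissue, at 1.26, is the filled point, and NFKBIA, at -1.91, lies farthest to the left.

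Distal and proximal segments were compared within each treatment, with SE and p values from group means not paired by piglet. TNFSF10 had the largest difference of the members in antibiotics piglets, with distal values of 5.31 to 7.23 against proximal values of 6.79 to 9.76. The difference was -2.71 (SE 1.01) and did not pass (limma adjusted p = 0.159). It was lower in the distal than in the proximal segment of piglets 86, 87 and 95 by log2 differences of -3.47, -1.32 and -2.25. With the 5′ minus 3′ index as a covariate the group difference was -1.51. In controls the animal differences were -2.42, -2.28 and -0.24 in piglets 88, 89 and 92, and 3.52 in piglet 83, whose proximal array was the outlying one. Across treatments TNFSF10 was thus lower distally in 6 of 7 piglets. The control group difference was -0.35 over all arrays and -1.66 without control proximal 83 (limma adjusted p = 0.648).

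FADD was higher in the distal than in the proximal segment of 7 of 7 piglets, by 0.71, 0.10 and 0.07 in antibiotics piglets 86, 87 and 95 and by 0.42, 0.28, 0.92 and 0.03 in control piglets 83, 88, 89 and 92. These differences ranged from 0.03 to 0.92. The group differences of 0.44 (SE 0.27, limma adjusted p = 0.452) with antibiotics and 0.41 (SE 0.27, limma adjusted p = 0.816) in controls did not pass. FADD was the 1 member probe set whose antibiotics distal and antibiotics proximal arrays did not overlap with distal higher, as 7.69% of all tested probe sets were.

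CASP6 showed no common direction between the segments: it differed by -0.94, 0.28 and -0.32 in antibiotics piglets and by 0.27, -0.39, 0.58 and -0.65 in control piglets, in the same order of piglets. The antibiotics group differences were -0.60 and -1.21 at its 2 probe sets, and the second passed, at -1.87 with a limma adjusted p of 0.0464, when antibiotics proximal 87 was left out. Over all alternative settings they ran from -0.97 to 0.02 and from -1.87 to 0.03. The sign changed in 1 of 19 and 1 of 18 settings. CASP1 differed by 1.97 in control piglet 92 and by -0.13 to 0.72 in the other 3 controls, and its control group difference was 0.72 (SE 0.32, limma adjusted p = 0.591). MCL1 was higher distally in 4 of 4 control piglets, by 0.19 to 0.59, and in 1 of 3 antibiotics piglets. TNFRSF1B was lower distally in 3 of 3 antibiotics piglets, by log2 differences of -1.75, -0.71 and -0.59, and in 2 of 4 control piglets. In antibiotics piglets 0 of 14 probe sets passed, where 5.25% of all did, and 13 of 14 had a lower distal mean, where 44.7% of all did. The 5′ minus 3′ index averaged -4.70 in antibiotics distal and -3.43 in antibiotics proximal tissue, and its part in this count was not tested. Under some alternative settings the sign changed at both probe sets of CASP6 and BID, and at CASP1, MCL1, TNFRSF1A and the bright CFLAR one. It stayed the same at the others. In controls 0 of 14 passed, where 0.364% of all did, and 6 of 14 had a lower distal mean. At an unadjusted p under 0.05 the count was 1 of 14 in each treatment, where 17.0% of all tested probe sets were under it with antibiotics and 7.99% in controls. Without control distal arrays 83 and 88 the control differences moved to 0.08 for TNFSF10 and 0.16 for FADD, and 4 of 14 were lower. Outside the members, IL18 was lower in distal tissue in both treatments, by log2 differences of -1.75 with antibiotics (limma adjusted p = 0.114) and -1.60 in controls (limma adjusted p = 0.416), and neither passed. Without control distal arrays 83 and 88, which enter the shared variance, the first gave a limma adjusted p of 0.0477 and the second was -2.71 (limma adjusted p = 0.0663).

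**Figure D5:**
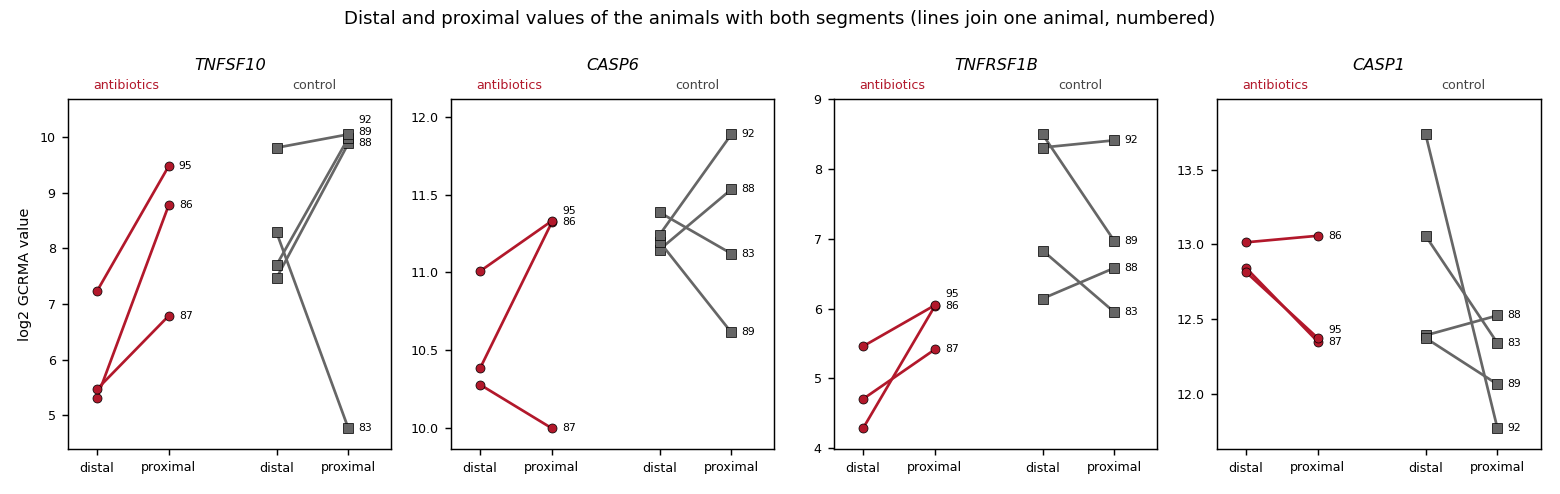
Log2 value of TNFSF10, CASP6, TNFRSF1B and CASP1 at the brightest probe set (vertical axis) in the distal and proximal segments of the 7 piglets that gave both (horizontal axis), with a line for each piglet, antibiotics left and controls right. TNFSF10 is lower in the distal segment of every piglet but control 83.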

How the data were processed

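Total RNA from piglet small intestine was labelled with biotin and hybridised to an Affymetrix porcine array, per the labels' protocols. The authors deposited log2 values, 1 per probe set and array. The submitters' processing notes name GCOS 1.2, GCRMA and limma, with neither order nor settings in the sources used here.

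The array held 24123 probe sets, and 124 controls among them were set aside. Of those used, 10069 carried 1 gene, 198 several and 13732 none. Symbols came from the platform annotation, and 9961 matched RefSeq by gene ID. A probe set shared by CFLAR and another gene was not used. Group means were fitted over all 16 arrays and the 11538 probe sets above log2 5 on at least 4 arrays, with limma 3.58.1 (lmFit, eBayes) in R 4.3.3. Benjamini-Hochberg adjustment ran over all of them, with a threshold of 0.05. The 6 comparisons were antibiotics over control in distal and in proximal tissue, the distal minus the proximal effect, distal over proximal with antibiotics and in controls, and antibiotics over control on 1 mean per animal. In simulated data with 50 probe sets changed by each of 1, 2, 3 and 5 (log2), the distal fit recovered 38%, 84%, 90% and 100%, with 9 of 165 calls false.

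The members and the gene lists were chosen with earlier results of these data known. Genes were named by rule: all members, every list gene past the threshold, the 2 genes of each list with the largest distal difference at the brightest probe set, the 3 genes most correlated with a called member, and markers that bear on a result.

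The animal means, the differences within single piglets and the replicate blocks took the number in each title as the piglet's. The distal over proximal comparisons were fitted on group means, without pairing by animal. The proximal and distal residuals of 7 animals correlated at 0.0293 to 0.526, and for 4 of them the best match was the other segment of the same animal. Alternatives were other filters, normalization again, array quality weights, the 5′ minus 3′ index, a replicate block and each array left out in turn. Figures were drawn with matplotlib 3.10.9.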

Additional observations from a re-analysis of the deposited data

Results flagged for a closer look

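Of 60 groups of 4 arrays examined (15 probe sets in 4 groups), 6 had an array far from the others, with a gap to the nearest above Dixon's 95% critical share of the range of the group. Chance flags about 1 in 20 groups. TNFSF10 was at 4.76 on control proximal array 83, where the nearest of the other arrays was at 9.89. CASP6 was at 11.01 on antibiotics distal array 95 at its brighter probe set, with the nearest at 10.38, and at 8.33 on the same array at its dimmer one, with the nearest at 7.18. BID was at 7.79 on control distal array 83 at its dimmer probe set, with the nearest at 8.41. The FADD probe set near the floor was at 2.78 on antibiotics proximal array 98, with the nearest at 2.21, and at 2.67 on control proximal array 92, with the nearest at 2.26. These last 2 values lie within the unmeasured range of the array. The causes were not tested.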

How the results depend on the processing

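With 4 arrays a group, counts of calls moved with the setting, and the cause was not tested unless stated. In distal tissue 245 probe sets passed between antibiotics and control, and 138 did without a filter, 1665 with array quality weights, 81 without the 2 arrays of lowest 5′ minus 3′ index (antibiotics distal 87 and control distal 83), 430 with the 8 distal arrays alone and 106 to 353 with 1 array left out. Member probe sets passing there numbered 1, against 0 without a filter, 0 with a filter at log2 7 (where TNFRSF1B was not tested), 5 with array quality weights, 0 without the 2 lowest arrays and 0 to 1 with 1 array left out. TNFRSF1B gave a limma adjusted p of 0.0944 without a filter and 0.0971 without the 2 lowest arrays. Array quality weights added TNFSF10 (-2.84, limma adjusted p = 0.0228), both CASP6 probe sets (0.0213 and 0.0374) and MCL1 (0.0206). In proximal tissue 17 passed, and 1 without a filter, 28 with equal array medians, 951 with weights, 11 with the index as a covariate, 8 without the 2 lowest arrays, 0 with the 8 proximal arrays alone and 2 to 556 with 1 array left out. For the difference of the effects 22 passed, and 11 without a filter, 210 with weights, 11 without the 2 lowest arrays, 10 without control distal 83 and 88 and 10 to 44 with 1 array left out. Between segments with antibiotics 606 passed, and 3008 with weights, 329 with the covariate, 397 without the 2 lowest arrays and 353 to 638 with 1 array left out. Of the members 0 passed, and 4 with weights and 0 to 1 with 1 array left out. Between segments in controls 42 passed, and 80 with weights, 80 with the covariate, 26 without the 2 lowest arrays and 25 to 77 with 1 array left out. On animal means 40 passed, and 1 without a filter, 922 with weights, 1 without the 2 lowest arrays (antibiotics piglet 87 and control piglet 83 then drop out), 240 without control piglets 83 and 88 and 19 to 416 with 1 animal left out. Of the members 0 passed, and 1 with weights and 1 without control piglets 83 and 88. With the animal as a random replicate block (correlation 0.172) 39 probe sets passed for the difference of the effects and 74 between segments in controls, and as a fixed replicate block 9 passed for the difference of the effects. Neither block changed a call of a member, and TNFRSF1B was at -2.58 in distal tissue with the random block (limma adjusted p = 0.019). Over the members and the named pathway genes 3272 values under an alternative were computed: 3223 stayed on their side of the threshold, 33 passed only under the alternative, 16 no longer passed and 0 called values changed sign. Another 216 changed sign while called under neither setting.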
